A study of Mus musculus with 4 samples.

Results

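The plakins are giant linker proteins of the cytoskeleton, and 5 of their genes were followed here: Plec (plectin), Eppk1 (epiplakin), Dsp (desmoplakin), Macf1 and Dst (dystonin). Every region that the authors' table annotates to these gene symbols was taken, which gave 67 of 6697 distinct regions. Plec had 27 regions, Eppk1 15, Dsp 10, Macf1 10 and Dst 5. The genes were proposed with results of this table in view, among them the large number of Plec regions. Region numbers, counts and folds are therefore descriptions.

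RNA carrying N6-methyladenosine (m6A) was captured with an antibody from mouse embryonic stem cells and sequenced. The cells that lack both Gsk-3 kinases (labelled Gsk-3 DKO) were set against wild-type cells (WT), with 1 m6A library each, and each genotype also had 1 input library that is not used here. All cells carried the strain label E14K, were grown without feeder cells and had been without leukaemia inhibitory factor, the cytokine that maintains mouse stem cells, for 14 days. The labels do not give the alleles, the number of clones or the number of cultures behind a library. The study asked how m6A-modified mRNA is affected by the loss of both kinases.

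Plakins tie intermediate filaments to cell junctions and to the other cytoskeletal systems. Plectin, epiplakin and desmoplakin carry plakin repeats that bind intermediate filaments, whereas the spectraplakins Macf1 and Dst have a long spectrin-repeat rod and join actin to microtubules. In mouse skin, Gsk-3β is known to phosphorylate the microtubule-binding end of the Macf1 protein. The genes have unusually long coding exons, and m6A is known to lie mainly in long internal exons and near stop codons. It is written by a methyltransferase complex built on Mettl3 and Mettl14.

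Each region had a read count for each genotype. Folds are given throughout as the WT count over the DKO count, multiplied by the authors' scaling constant, so a larger fold means fewer DKO reads. A region without DKO reads was treated as if it had 3, and its fold is written as "at least". The 95% upper limit of a count of 0 is 3.69, so the exact lower limit of such a fold lies below the value given. Intervals are exact 95% counting intervals. They do not cover differences between cultures, which 1 library per genotype cannot show, and no p-value was computed. The table held no input counts, so a change in transcript amount cannot be told apart from a change in methylation, nor fewer cells of a type from less RNA per cell.

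Over all 6697 regions the counts summed to 27072 in the double knockout and 573971 in wild type, a 17.5-fold difference. No library totals were given, so these sums are not sequencing depth. Gsk3a was not listed, and the 1 region of Gsk3b lay upstream of the gene, so the deletion could not be checked. Every region of the table had fewer double-knockout reads than wild-type reads, and the plakin regions share that direction through the make-up of the list. Under a median-ratio factor, which moves every log2 value up by 3.77, the plakin median is 0.36 in place of -3.41, so no direction is drawn from the group.

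The 67 plakin regions held 1643 double-knockout reads and 19527 wild-type reads, a 9.80-fold difference (9.32 to 10.3). They were 1.00% of the listed regions by number, 6.07% of the listed double-knockout reads and 3.40% of the listed wild-type reads. Their median log2 value of double knockout over wild type, with a pseudocount of 0.5 on both counts, was -3.41, beside -4.93 over all regions. Over all regions that overlap a coding exon or UTR it was -4.27. Plec alone supplied 1139 of the plakin DKO reads and 13036 of the plakin WT reads. Without Plec the plakin median was -4.14.

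Double-knockout reads were present in 57 of the 67 plakin regions (85.1%), beside 49.5% of all regions. Of exonic regions, those that overlap a coding exon or UTR, 63.9% had such reads. A fold of at least 10 was reached by 33 of the 67, beside 52.5% of all regions and 56.6% of exonic ones. At the floor of 3 counts, a region with no double-knockout reads and few wild-type reads cannot reach it. The share with double-knockout reads was higher at higher read numbers: over the table it ran from 33.8% of regions with 15 to 49 wild-type reads to 94.8% of those with at least 500. The share at least 10-fold lower was 34.0% in the first of these classes and lay between 71.2% and 78.6% in all deeper ones. Plakin regions were deep: their median wild-type count was 150, against 43 for all regions. Among regions with at least 100 wild-type reads, 41 of 43 plakin regions had double-knockout reads, beside 81.2% of all such regions. Of exonic regions, 85.9% had such reads at 100 to 199 wild-type reads, 91.6% at 200 to 499 and 95.8% from 500 upwards. The plakin numbers in these classes were 16 of 18, 15 of 15 and 10 of 10, near the exonic shares. With at least 100 wild-type reads, 18 of the 43 plakin regions were at least 10-fold lower, beside 72.7% of all such regions. These 18 were 8 of 22 in Plec, 3 of 9 in Eppk1, 4 of 5 in Dsp, 3 of 4 in Macf1 and 0 of 3 in Dst. Over all exonic regions the share at least 10-fold lower was 66.1% at 100 to 199 wild-type reads, 63.4% at 200 to 499 and 64.6% from 500 upwards.

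The 5 genes did not share 1 fold. Dst had the smallest fold of summed counts, 64 DKO and 444 WT reads (5.72-fold, 4.39 to 7.56). Eppk1 followed with 331 DKO and 3710 WT reads (9.24-fold, 8.26 to 10.4), and Plec with 1139 DKO and 13036 WT reads (9.44-fold, 8.88 to 10.0). The intervals of Eppk1 and Plec overlapped, but the Eppk1 fold joins stretches of unlike folds, 7.76 and 127, given below. Macf1 had 65 DKO and 1170 WT reads (14.8-fold, 11.6 to 19.4). Dsp had 44 DKO and 1167 WT reads (21.9-fold, 16.2 to 30.3). The intervals of Macf1 and Dsp overlapped each other, and neither overlapped those of Plec, Eppk1 or Dst. The places of Dst, Macf1 and Dsp in this order rest on few regions, as given for each below.

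**Figure D1:**
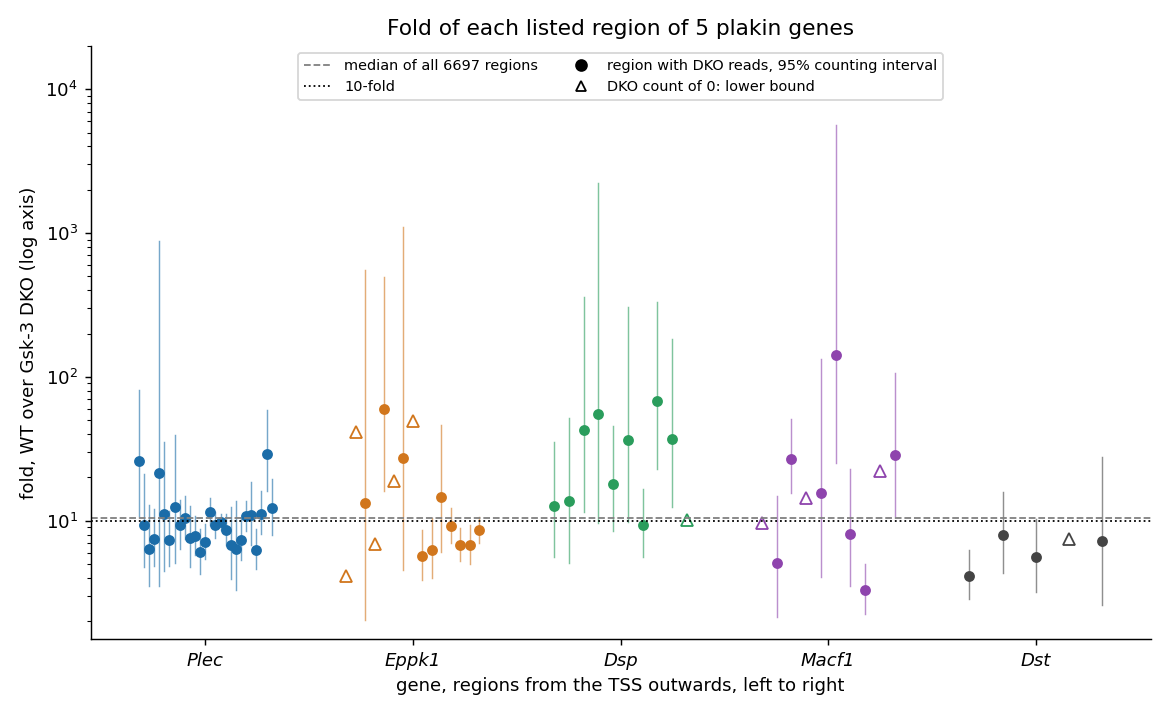
Fold of wild type over double knockout (log axis) for each of the 67 regions, grouped by gene and ordered outwards from the transcription start. Circles are regions with double-knockout reads and bars their 95% counting intervals, and open triangles are lower bounds at a double-knockout count of 0. Plec regions lie between 6.05 and 28.9, while Eppk1, Dsp and Macf1 spread more widely.

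Plec encodes plectin, which binds intermediate filaments and, through calponin-homology domains, actin, and which anchors keratin filaments at hemidesmosomes. It had more listed regions than any other gene and ranked 2 of 3882 genes by summed reads in each library. All 27 regions (chromosome 15, 76171101 to 76195665) had double-knockout reads. The double-knockout count ran from 1 through a median of 25 to 280, and the wild-type count from 26 through a median of 339 to 3311. The regions lay 35845 to 60095 bases from the transcription start of the listed transcript. By the authors' annotation 18 lay within coding exons, 7 crossed a coding exon border, 1 was intronic and 1 lay in the 3'UTR.

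Most Plec reads came from 1 dense stretch. The 19 regions from 76171101 to 76181896 covered 7010 of 10796 bases (64.9%). They held 1054 double-knockout reads and 12086 wild-type reads, which is 92.5% and 92.7% of the reads of the gene. All 19 overlapped an exon, 17 of them a coding exon alone. One pair of neighbours overlapped by 28 bases, so a read there may be counted in both.

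The peak of this stretch was the same in both genotypes. The region with the most reads (76176301 to 76177344, a coding exon) had 280 DKO and 3311 WT reads, or 268 DKO and 3171 WT reads per 1000 bases. Its fold was 9.75 (8.63 to 11.1). Of the 27 Plec regions it was the densest in each library. Its neighbours had 101 DKO against 1135 WT reads (76177751 to 76178229, 9.27-fold) and 90 DKO against 1259 WT (76178503 to 76178929, 11.5-fold), and on the other side 75 DKO against 784 WT (76175601 to 76175982, 8.62-fold). Outside the 5 regions between 52095 and 55587 bases from the start, density was at most 152 DKO and 1592 WT reads per 1000 bases.

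Towards the end of the transcript the fold was larger in the last coding region. That region (76172256 to 76172529) had 11 double-knockout reads and 386 wild-type reads, a 28.9-fold difference (16.0 to 58.5). The coding region just before it (76172777 to 76173111) had 38 DKO against 516 WT, an 11.2-fold difference (8.05 to 16.0), and the 3'UTR region just after it (76171101 to 76171465) had 23 DKO against 341 WT, a 12.2-fold difference (8.01 to 19.6). The listed regions on both sides of it had smaller folds, but their counting intervals overlapped that of the last coding region. Its fold was the largest of the 27 Plec regions and was singled out after the values were seen.

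The 8 regions nearer the start held 85 double-knockout reads and 950 wild-type reads, a 9.22-fold difference (7.38 to 11.6), beside 9.46-fold (8.88 to 10.1) in the 19 others. The intervals of these folds overlapped, while the read density differed: 40.5 DKO against 452 WT reads per 1000 bases nearer the start, and 149.8 DKO against 1717 WT reads in the dense stretch. The only intronic region (76195402 to 76195665), which was also the one closest to the start, had 5 DKO reads against 157 WT, a 25.9-fold difference (10.9 to 80.9). The interval of 22 of the 27 regions contained the fold of the whole gene, 3 lay below it and 2 above. The 2 above were the intronic and the last coding region.

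Eppk1 encodes epiplakin, a protein made almost wholly of plakin repeats that binds keratins in epithelia. Along its coding sequence the double-knockout counts were of distinct sizes in the stretches far from and near to the start. All but 1 of its 15 regions lay in coding exon sequence on chromosome 15. The 7 regions farther than 14000 bases from the transcription start (76102578 to 76105985) held 327 double-knockout reads and 3078 wild-type reads, a 7.76-fold difference (6.92 to 8.73). The 7 coding regions nearer the start (76106405 to 76112557) held 4 DKO against 617 WT, a 127-fold difference (49.4 to 468). The position of this boundary was chosen after the values were seen.

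In the far stretch each region had double-knockout reads. From the far end inwards the counts were 101 DKO against 1055 WT, 48 DKO against 395 WT, 65 DKO against 533 WT, 57 DKO against 639 WT, 5 DKO against 89 WT, 21 DKO against 160 WT and 30 DKO against 207 WT. Their folds ran from 5.69 to 14.7, and that of 14.7 belonged to the region with 5 reads. The last region before the boundary (76105653 to 76105985) had 30 DKO against 207 WT reads, a 5.69-fold difference (3.87 to 8.65).

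On the other side of a gap of 419 bases the next region (76106405 to 76106888) had 0 DKO against 180 WT reads, at least 49.5-fold lower. Further towards the start the counts were 1 DKO against 33 WT, 0 DKO against 69 WT, 2 DKO against 144 WT, 0 DKO against 25 WT, 1 DKO against 16 WT and 0 DKO against 150 WT. The region with 0 DKO against 150 WT (76111847 to 76112557) was at least 41.2-fold lower. No coding region on this side had more than 2 DKO reads. At like WT counts, the near regions had 2 DKO and 144 WT, 0 DKO and 150 WT or 0 DKO and 180 WT reads, whereas far regions had 21 DKO and 160 WT or 30 DKO and 207 WT reads. The near coding regions together had 1.81 DKO and 279 WT reads per 1000 bases, and the far stretch 116 DKO and 1087 WT reads.

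With the gene divided at the median distance instead, the fold of the far regions was 0.0882 times that of the near ones (0.0238 to 0.230). The remaining Eppk1 region (76124516 to 76124698) lay upstream of the gene with 0 DKO against 15 WT reads and is also listed under the neighbouring gene BC024139. Epiplakin repeats are known to be highly similar to one another in mouse. How reads that match several repeats were placed is not given in the sources used here, so the division of reads among the coding regions is uncertain, and its part in the contrast was not tested.

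**Figure D2:**
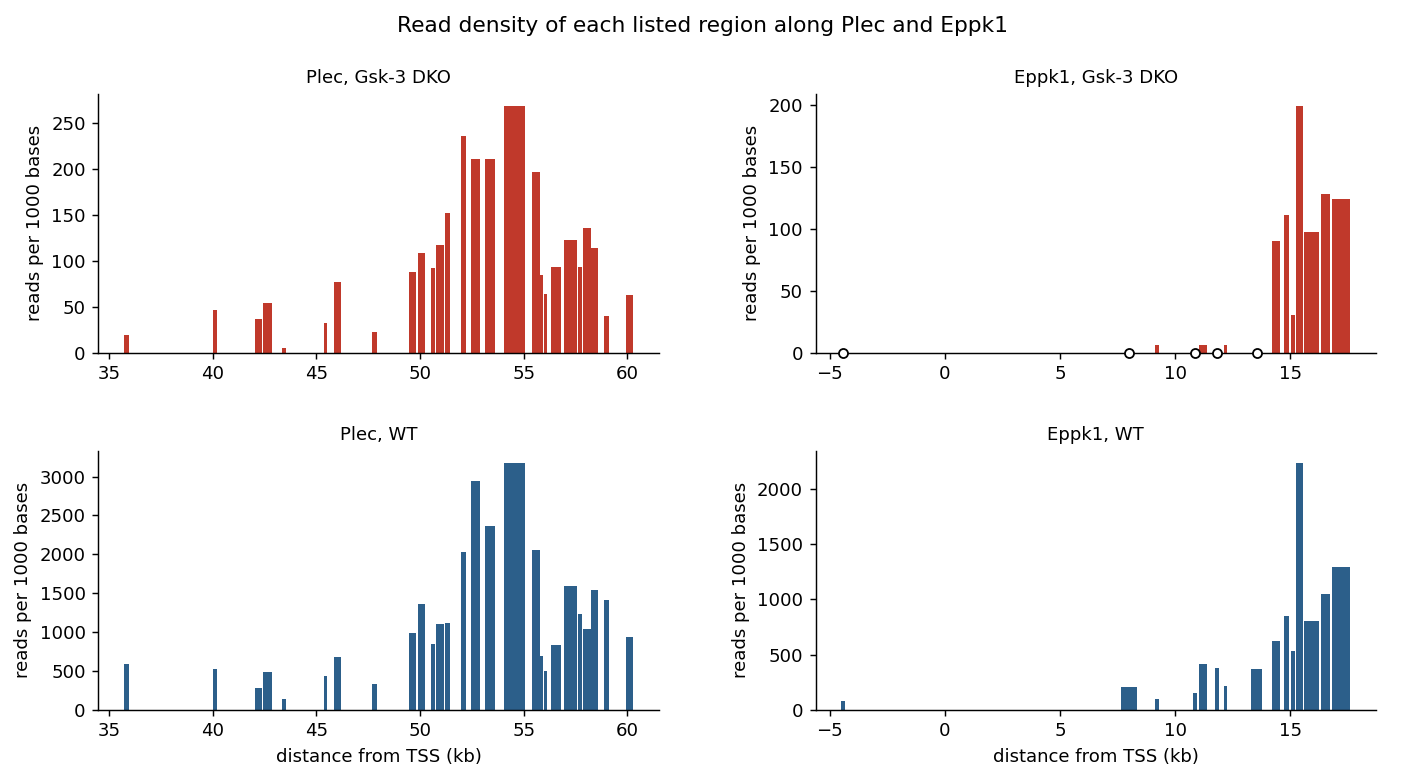
Reads per 1000 bases of each listed region of Plec and Eppk1 by distance from the transcription start (kb), double knockout above and wild type below on separate scales. Bars span the regions and open circles mark a double-knockout count of 0. In Plec both libraries peak in the same region at 268 DKO and 3171 WT reads per 1000 bases, while in Eppk1 the regions nearer than 14000 bases have at most 2 double-knockout reads each.

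Dsp encodes desmoplakin, which attaches intermediate filaments to desmosomes. Its 10 regions on chromosome 13 (38151405 to 38197604) all overlapped coding sequence. The double-knockout count ran from 0 through a median of 3 to 16, and the wild-type count from 37 through a median of 98 to 246. At least 10-fold differences were found in 9 of the 10 regions, beside 52.5% over the table. At like depth they were 4 of 4 with 50 to 99 wild-type reads, beside 78.6% over the table. With at least 100 wild-type reads they were 4 of 5, beside 72.7%. Among the 9, the region with 0 DKO against 37 WT reads counts at the floor of 3, and its lower limit was 7.87.

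The first Dsp region covered the start of the coding sequence and the 5'UTR (38151405 to 38151614), the only plakin region that overlapped a 5'UTR. It had 6 double-knockout reads and 92 wild-type reads, a 12.6-fold difference (5.59 to 35.4). A region across a coding exon border (38168641 to 38168804) had 4 DKO against 66 WT (13.6-fold, 5.07 to 51.4). The other 8 lay more than 40000 bases from the start and together had 34 DKO against 1009 WT reads (24.5-fold, 17.4 to 35.5). The counting intervals of these folds overlapped.

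Adjoining Dsp regions differed sharply. The region that crosses a coding exon border (38194694 to 38195038) had 16 DKO reads against 180 WT, a 9.28-fold difference (5.56 to 16.6). It held 36.4% of the double-knockout reads of the gene. The region that starts 12 bases after its end (38195051 to 38195212, a coding exon) had 3 DKO against 246 WT, a 67.6-fold difference (22.9 to 330.2), and was the densest Dsp region in wild type with 1519 reads per 1000 bases. The intervals of these neighbours did not overlap, and the cause was not tested. Without the region with 16 reads, the summed fold of Dsp was 29.1 (20.0 to 44.0).

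The remaining regions of Dsp held few DKO reads. They had 2 DKO against 104 WT, 1 DKO against 67 WT, 7 DKO against 152 WT, 2 DKO against 88 WT and 3 DKO against 135 WT reads, and the region nearest the transcript end had 0 DKO against 37 WT. The lower limits of the first 5 folds ran from 8.48 to 12.4, and the last region was at least 10.2-fold lower.

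Macf1 encodes a spectraplakin that guides microtubules along actin filaments and that mouse embryos need at gastrulation. Its 10 regions on chromosome 4 (123350852 to 123523482) held 65 double-knockout reads and 1170 wild-type reads. By the annotation to Macf1, 8 of the 10 were intronic. Of these, 7 are also listed under D830031N03Rik, a gene that lies inside Macf1, where the authors annotate them as coding exon at 199 to 4142 bases from its own start. Which transcript gave the reads of these 7 regions was not tested.

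The folds of the 7 shared regions ran from 3.30 to 143. One of them (123408116 to 123408315) had 33 double-knockout reads and 132 wild-type reads, a 3.30-fold difference (2.24 to 4.99), near the smallest fold of any region in the table with double-knockout reads (2.91). Its neighbours had 0 DKO against 81 WT reads (123407666 to 123407873, at least 22.3-fold lower) and 6 DKO against 59 WT (123408867 to 123409070, 8.11-fold). Next to these, a region of 586 bases (123409213 to 123409798) had 1 DKO against 173 WT, a 143-fold difference (25.3 to 5668).

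The deepest shared region (123411414 to 123412011) had 13 double-knockout reads and 425 wild-type reads, a 27.0-fold difference (15.6 to 51.1). The other 2 had 2 DKO against 38 WT and 0 DKO against 52 WT. Together the 7 had 55 DKO against 960 WT reads (14.4-fold, 11.0 to 19.3). The region with 33 reads held 50.8% of all double-knockout reads of Macf1, and without it the summed fold of the gene was 26.8 (18.8 to 39.3) in place of 14.8. The difference between the regions far from the start and those near it also turned round without that region, so none is read from it.

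The 3 regions that are Macf1 alone had 10 DKO against 210 WT reads (17.3-fold, 9.23 to 36.6). The region spanning the end of the coding sequence and the 3'UTR (123350852 to 123351113) had 4 DKO against 138 WT, a 28.5-fold difference (10.9 to 106). A coding exon region (123432060 to 123432251) had 6 DKO against 37 WT, a 5.09-fold difference (2.13 to 14.7). An intronic region (123523326 to 123523482) had 0 DKO against 35 WT, at least 9.62-fold lower.

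Dst encodes dystonin, whose isoforms serve neurons, muscle and the hemidesmosomes of skin. Its 5 regions on chromosome 1 (34188611 to 34262227) all overlapped coding sequence and lay 176948 to 250325 bases from the listed start. None reached 10-fold, beside 52.5% over the table. For the region with 0 DKO against 27 WT reads, the floor of 3 counts allowed no more than 7.42. The region closest to the start had 33 double-knockout reads and 166 wild-type reads (34188611 to 34188936, 4.15-fold, 2.84 to 6.23) and the next had 12 DKO against 115 WT (34192438 to 34192689, 7.90-fold, 4.35 to 15.7).

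A Dst region across a coding exon border (34200855 to 34201124) had 15 DKO against 101 WT reads (5.55-fold, 3.21 to 10.3). The other 2 were shallow, with 0 DKO against 27 WT (at least 7.42-fold lower) and 4 DKO against 35 WT (7.22-fold, 2.58 to 28.0). The interval of each of the 4 regions with double-knockout reads contained the fold of the gene, 5.72. Without the region with 33 reads, which held 51.6% of the double-knockout reads, the fold was 7.40 (5.09 to 11.1), and that interval overlapped those of Plec and Eppk1.

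**Figure D3:**
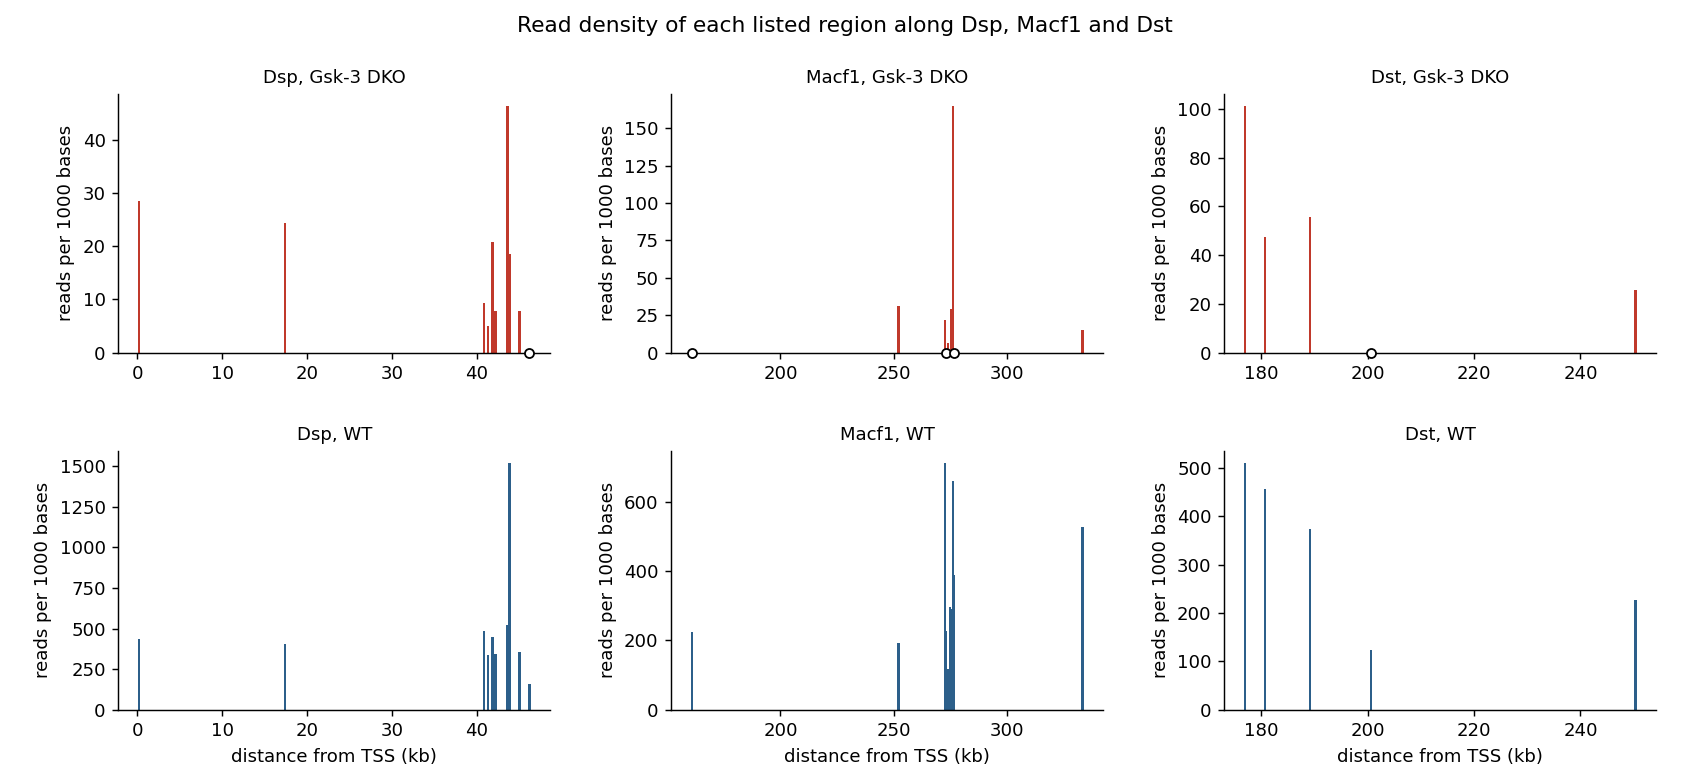
Reads per 1000 bases of each listed region of Dsp, Macf1 and Dst by distance from the transcription start (kb), double knockout above and wild type below on separate scales. Bars mark regions and open circles a double-knockout count of 0. The tallest bar differs between the libraries in Dsp (46.4 DKO and 1519 WT reads per 1000 bases, in neighbouring regions) and in Macf1 (165 DKO and 711 WT), and is the same region in Dst.

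Most plakin regions were exonic, whereas 8 of the 10 Macf1 regions were intronic by the annotation to Macf1. Coding sequence was overlapped by 56 of the 67 (83.6%), beside 43.5% of all regions, and coding exon alone by 44 (65.7%), beside 18.1%. The plakin numbers use the annotation under the plakin gene, whereas the shares of all regions use every gene listed for a region. By the latter rule the 7 Macf1 regions shared with D830031N03Rik and the upstream Eppk1 region also overlap coding sequence. The 3'UTR was overlapped by 2 plakin regions, 1 each in Plec and Macf1. With the 7 regions of D830031N03Rik counted under their coding annotation, 2 of the 67 were intronic only. A region was 262 bases long in the median, against 191 over the table.

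Within a gene the read density of wild type and the log2 value were related in different ways. Across the 15 Eppk1 regions Spearman's rho was 0.57, with denser regions having the smaller folds, and across the 27 Plec regions it was -0.15. In Dsp it was 0.33 and in Macf1 -0.08, over 10 regions each. In Eppk1 the distance from the start had a rho of 0.91 with wild-type density and 0.60 with the log2 value. There, density and position along the gene cannot be told apart. These values are across regions of the same pair of libraries, which share their wild-type count with the log2 value, and describe those libraries only.

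**Figure D4:**
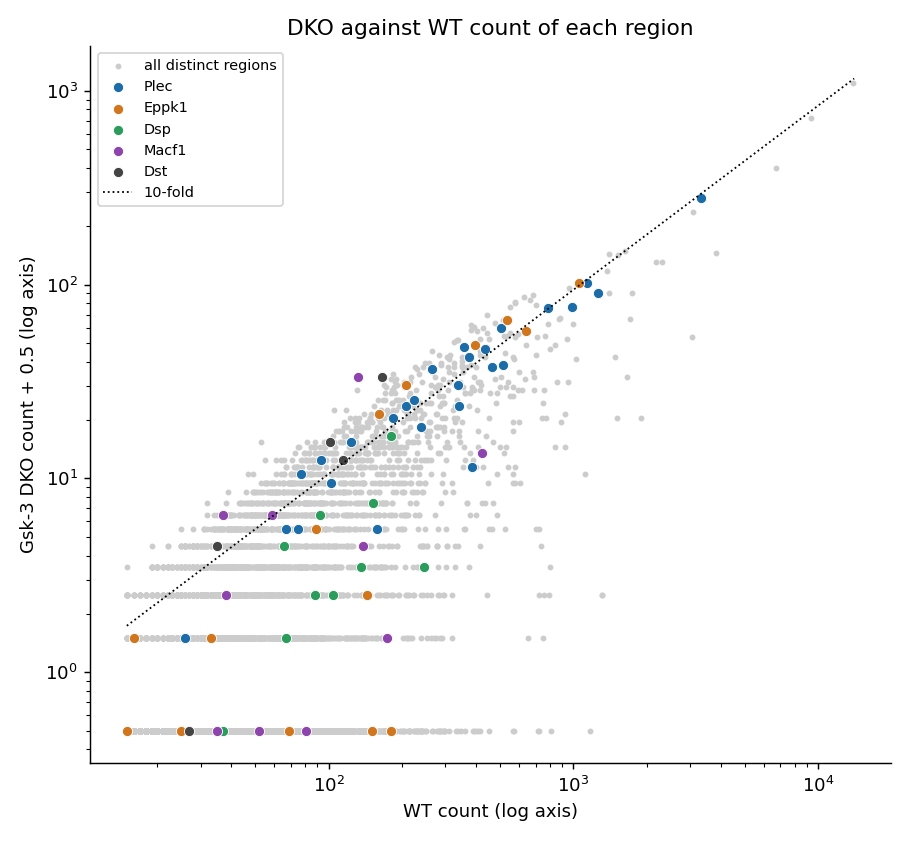
Double-knockout count plus 0.5 against wild-type count (both log axes) for all distinct regions (grey) and the plakin regions (coloured by gene). The dotted line marks a 10-fold difference. Plec regions follow the line over counts of 26 to 3311 in wild type, the 4 Dst regions with double-knockout reads lie above it, and Dsp regions lie mostly below it.

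The other plakin genes were listed with few reads. Evpl (envoplakin) and Ppl (periplakin), which build the cornified envelope of skin, had 1 DKO against 103 WT reads in 3 regions (85.0-fold, 14.9 to 3388) and 1 DKO against 88 WT in 2 regions (72.6-fold, 12.7 to 2899). Of their 5 regions 3 were at least 10-fold lower, beside 52.5% of all regions, and 3 had no double-knockout reads, beside 50.5%. The intervals reach down to 12.7-fold and include the fold of Dsp.

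Genes of the structures to which plakins attach were looked up under current symbols. Genes listed under older symbols are not in these numbers or in those of the marker lists. The share of all annotated genes that are listed was not computed, so the numbers of listed genes are descriptions. Of 15 desmosome genes 1 was listed, Pkp4 (plakophilin 4) with 8 DKO against 56 WT reads in 1 region (5.77-fold, 2.74 to 14.0). Of 13 hemidesmosome and focal contact genes 7 were listed, with 14 of 24 regions at least 10-fold lower (58.3%), near the 52.5% of all regions, and a median log2 value of -4.29, beside -4.93 over the table. The deepest were Itga3, an integrin chain (53 DKO against 933 WT, 14.5-fold), Tln1, talin (12 DKO against 264 WT, 18.1-fold), Vcl, vinculin (6 DKO against 223 WT, 30.7-fold) and Itga6, the partner of the integrin to which plectin binds (8 DKO against 117 WT, 12.1-fold). Itgb4, the plectin-binding integrin chain, was not listed.

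Of 24 intermediate filament and lamin genes, the cargo of the plakins, 9 were listed. In these, 15 of 19 regions were at least 10-fold lower (78.9%), beside 52.5% of all regions, and the median log2 value was -5.95. No double-knockout reads were found in 12 of the 19, beside 50.5% of all regions, and 7 of these 12 belong to Nes. Nes (nestin) had 11 DKO against 2184 WT reads (164-fold, 91.3 to 329), Vim (vimentin) 0 DKO against 72 WT (at least 19.8-fold lower), Krt18 (keratin 18) 0 DKO against 68 WT (at least 18.7-fold lower) and Lmnb2 (lamin B2) 4 DKO against 67 WT (13.8-fold). Plec, by comparison, had double-knockout reads in each of its regions, also in the 5 with under 100 wild-type reads. No test of this difference was possible with 1 library per genotype.

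Of 16 genes of microtubule ends and motors 4 were listed, with 5 of 8 regions at least 10-fold lower, beside 52.5% of all regions, and a median log2 value of -4.96, close to the -4.93 over the table. They were the linker genes Clip2 (21 DKO against 314 WT, 12.3-fold) and Clip1 (4 DKO against 206 WT, 42.5-fold), the dynein chain gene Dync1h1 (3 DKO against 69 WT, 19.0-fold) and Clasp1 (0 DKO against 34 WT, at least 9.35-fold lower). Clasp1 is known to stabilise microtubule tips. Of 22 genes for spectrin-repeat or calponin-homology actin linkers 12 were listed, with 36 of 55 regions at least 10-fold lower (65.5%), beside 52.5% of all regions, and a median log2 value of -5.22. Flnc and Flna (filamins) had 11 DKO against 1888 WT (142-fold) and 23 DKO against 1224 WT reads (43.9-fold), and Actn1 (alpha-actinin) had 52 DKO against 1145 WT (18.2-fold).

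Among the 16 genes with at least 10 regions, those nearest to Plec in the fold of summed counts over the 2 libraries were Eppk1 (9.24-fold), the giant cadherin gene Fat1 (151 DKO against 1949 WT, 10.6-fold, 9.02 to 12.6) and the laminin gene Lamc1 (290 DKO against 2760 WT, 7.85-fold, 6.95 to 8.89). After Plec, the genes with the most regions were Lamc1 (18), Fat1 and Eppk1 (15 each) and Flnc (14). Macf1 took place 8 and Dsp place 13 of 16 from the smallest fold upwards.

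**Figure D5:**
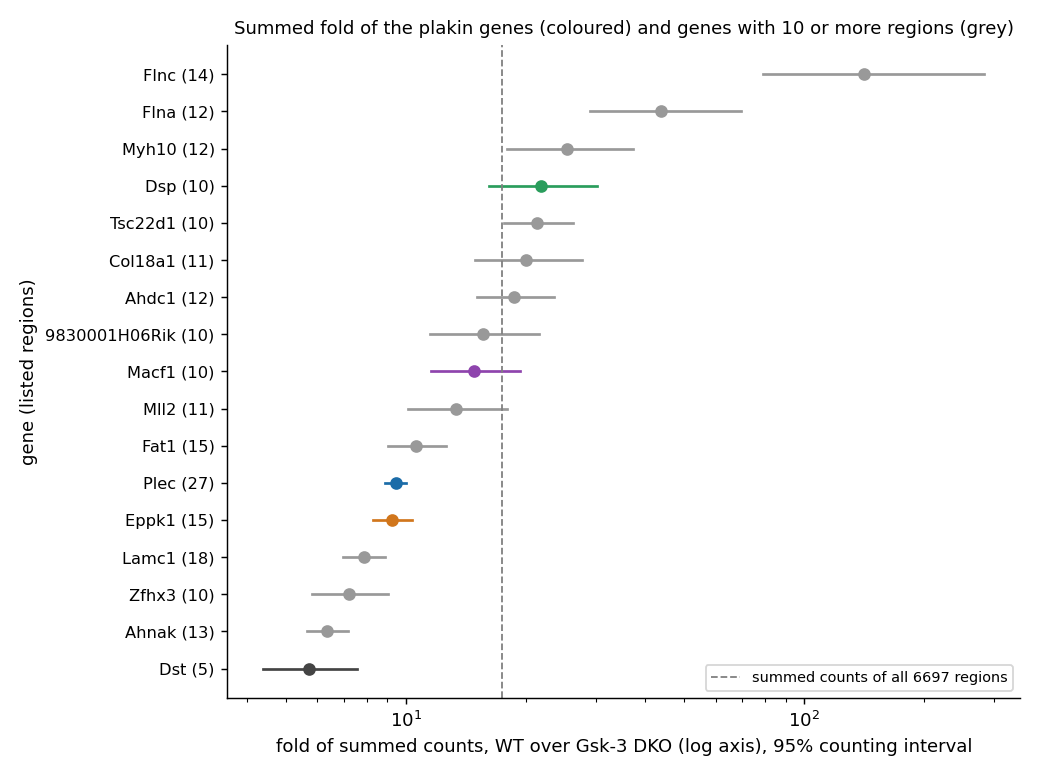
Fold of summed counts, wild type over double knockout (log axis), with 95% counting intervals for the 5 plakin genes (coloured) and the other genes with at least 10 regions (grey), number of regions in parentheses. The dashed line is the fold of all 6697 regions, 17.5. Plec and Eppk1 lie side by side at 9.44 and 9.24, Dst lies lowest at 5.72 and Dsp at 21.9 lies above the line. The Eppk1 sum joins a far stretch at 7.76 and near coding regions at 127.

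The labelled cell type was checked on marker genes, of which the table can show only those with listed regions. Of 10 pluripotency markers 4 were listed, Esrrb with 12 DKO against 187 WT reads, Pou5f1 with 6 DKO against 55 WT, Utf1 with 1 DKO against 46 WT and Lin28a with 0 DKO against 19 WT. The regions of Utf1 and Lin28a are annotated upstream of the gene and so do not check it, the deepest region of Esrrb is intronic, and that of Pou5f1 is in a coding exon. Nanog and Sox2 were not listed. Of 9 markers of stratified epithelium, where Dsp and Dst serve junctions and Eppk1 binds keratins, 0 were listed, and of 8 of simple epithelium 2, Cldn6 (10 DKO against 76 WT) and Krt18. Of 11 extraembryonic endoderm markers 8 were listed (Lamc1, Col4a1, Lama1, Col4a2, Sox7, Sparc, Sox17 and Gata6) and summed to 555 DKO against 4895 WT reads (7.27-fold), and of 10 fibroblast markers 4 (Col1a1, Fn1, Vim and Pdgfrb), with 8 DKO against 572 WT (59.0-fold). These marker sums differ between genotypes as the plakin sums do, and their part in the plakin values was not tested.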

How the data were processed

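The authors deposited 1 table of regions with gene annotation. It holds whole-number read counts for WT and Gsk-3 DKO per the file headers, which do not say whether they were normalized. No header names the library type. Both columns were assigned to the m6A libraries from their titles, and whether input entered the counts cannot be told apart. The deposited enrichment factor is a ratio, the WT count over the DKO count times a constant of 0.825, and is blank at a DKO count of 0. The deposited read density is a signal, the WT count per base. Per the submitters' processing notes, Bowtie2, DESeq and mm9 were used in roles not stated. Neither the peak caller nor the listing rule is given in the sources used here. Coordinates are as deposited, and the deposited distances place the start of Plec, Eppk1 and Dsp at the gene boundary of a RefSeq table of GRCm38.p6, not mm9. For Macf1 and Dst the deposited start matched neither boundary of the gene, so their distances are from the start of the listed transcript only.

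Each of 6697 distinct regions (7562 rows) was used once. A region's overlap type is that listed under the plakin gene, and over the table that of all its rows. Exact 95% intervals of a fold come from the Clopper-Pearson method, computed with SciPy 1.17.1 in Python 3.11.15. Intervals and the floor of 3 counts cover at most counting error, because PCR reads without molecular identifiers are not independent molecules. The interval scripts were tested on simulated data. With 1 library per genotype there is no test. Members, gene lists, marker lists and the rule for named genes (the 5 plakins, the up to 4 deepest listed members of each list, listed markers, the 3 genes nearest to Plec and the 5 with the most regions) were chosen with earlier results of these data known. One gene that the rule names is not reported here. Alternatives changed the pseudocount, the scaling, the regions and the genes included. No genome or protein table was used here, so no sequence is printed.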

Additional observations from a re-analysis of the deposited data

How the results depend on the processing

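No paired analysis was possible because each genotype had 1 library. Of 72 alternatives, 54 stayed within a range set for each result. For folds and far over near ratios it was the counting interval, and for the number of regions 1.5 times. For the median log2 value it came from the spread of the 67 region values, which is not counting error. Among the 54 are changes of sign in the log2 far over near fold without the region with the highest WT count. It went from 0.25 to -0.20 in Dsp and from 0.46 to -0.16 in Dst. Over the plakin regions the median log2 value of -3.41 moved to -4.14 without Plec, to -3.69 with no constant and to 0.36 with the median-ratio factor. With that factor 1 region in place of 33 was at least 10-fold lower, and the summed folds became 0.694 for Plec, 0.679 for Eppk1, 1.61 for Dsp, 1.09 for Macf1 and 0.420 for Dst; the factor shifts every value alike and keeps their order. Without the constant Plec and Eppk1 had 11.4-fold and 11.2-fold. The deepest region alone gave 67.6 for Dsp, 27.0 for Macf1 and 4.15 for Dst. Without the region with the most DKO reads, chosen after seeing the data like the factor for single genes, Macf1 had 26.8-fold. On the log2 scale, the far over near fold was 1.40 in place of 0.25 in Dsp and 0.55 in place of -1.08 in Macf1, where medians of regions gave -0.034; fewer reads enter these values, and the cause was not tested further. The numbers of DKO reads limit the folds of single regions in Dsp, Macf1, Dst and the near part of Eppk1.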

Other observations

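Other genes with very long exons or coding sequences were listed with folds on both sides of those of Plec. Of 26 such genes 12 were listed under the current symbols used. Of their 45 regions 15 were at least 10-fold lower, beside 52.5% of all regions. Their median log2 value was -3.23, beside -3.20 for the Plec regions. Most of the 45 regions came from Ahnak (13, median -2.54) and Fat1 (15, median -3.32), so the median mainly describes those genes. Genes under older symbols are not in these numbers. Among them is Kmt2d, listed as Mll2 with 11 regions and 53 DKO against 860 WT reads (13.4-fold, 10.1 to 18.0). Its median log2 value was -3.92. The scaffold gene Ahnak had 310 DKO against 2389 WT reads (6.36-fold, 5.64 to 7.18) and 13 regions, each with double-knockout reads, as in Plec. Hmcn1, an extracellular matrix gene, had 9 DKO against 194 WT reads (17.8-fold) and the Wnt pathway gene Apc 2 DKO against 116 WT (47.8-fold, 12.9 to 400). With 1 library per genotype no difference between these genes and the plakins was tested.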
